A study of Mus musculus with 12 samples.

Results

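A set of 8 genes of receptor tyrosine kinase signalling, out of 18278 in the count files, was followed through tumourspheres of mouse mammary cancer cells. They were chosen by name as kinases linked to mesenchymal cells and invasion, with some of their ligands. The receptors were Pdgfra, Pdgfrb, Met and Axl, and the ligands were Pdgfa, Pdgfb, Pdgfc and Gas6. All 8 were present in the files and passed the filter on low counts.

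PDGF receptors are dimeric kinases of mesenchymal cells that are activated by disulphide-linked dimers of PDGF chains and that drive migration and proliferation. Of the A, B and C chains followed here, the alpha receptor binds all, whereas the beta receptor binds chiefly the B chain. PDGF-C has to be cleaved outside the cell before it can bind. The gene of the D chain, Pdgfd, was not analysed here. MET is the receptor for hepatocyte growth factor and is typical of epithelial cells, and AXL is one of the TAM receptors, whose ligand GAS6 needs vitamin K-dependent carboxylation. Signalling through all of these receptors has been linked to epithelial-mesenchymal transition and invasion in breast cancer.

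The study asked what the transcription factor NFIB contributes to breast cancer metastasis. Tumourspheres, which are clusters grown from dissociated cells without attachment, were cultured for 6 days from 10000 cells per mL with EGF (20 ng per mL) and basic FGF (20 ng per mL). There were 3 RNA-seq libraries for each of 4 groups, the parental lines LM1 and LM9 and their derivatives LM1 Nfib KO and LM9 Nfib KO. LM1 and LM9 were derived from tumour cells in the lungs of NOD/SCID mice after piggyBac transposon mutagenesis of HR1 cells, a line from a mammary tumour driven by a mutant PIK3CA transgene with the ubiquitous CAG promoter, so all 4 groups share the transgene and the transposon. The cells labelled Nfib KO were made from the same lines with CRISPR-Cas9 guides against the first exons, and were pools of clones chosen by immunoblot, several for LM1 and a pair for LM9. Nothing states that the 3 libraries of a group came from separate cultures, so the p-values measure the spread between these libraries, which may be technical.

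The libraries held between 29249075 and 37162594 counts. The level of Nfib mRNA did not fall with the knockout label. It lay at 196 to 241 CPM (counts scaled to library size) in LM1 and 228 to 239 in LM1 Nfib KO, with a log2 fold change of 0.11 (adjusted p = 0.533, limma-voom). In LM9 it lay at 210.3 CPM in replicate 1 and at 119.6 and 133.5 in replicates 2 and 3, and in LM9 Nfib KO at 227 to 247. The log2 fold change in LM9 was 0.68 (adjusted p = 0.00260), or 0.93 without LM9 replicate 1 (adjusted p = 1.14e-09, limma-voom). Counts over a whole gene do not show whether a guide disrupted the protein, and the directions below are therefore those of libraries labelled knockout. LM9 replicate 1 stood apart from its group: over all tested genes its log2 CPM correlated at r = 0.995 to 0.996 with the LM1 libraries but at 0.968 to 0.970 with LM9 replicates 2 and 3. The LM9 levels and fold changes of the 8 genes are therefore given with and without this library. Genes of luminal epithelium (Krt8, Krt18, Krt19, Epcam and Cdh1, summed) lay at 737 to 787 CPM in LM1 and 786 to 1327 in LM9, but at 0.931 to 1.11 in both groups labelled knockout. The luminal markers of a breast cancer line were thus near 0 in libraries labelled knockout, and basal markers, given with the other cell types, went in different directions.

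Regulatory sequence is shown for 3 members, because NFIB is a DNA-binding factor: the ligand gene Gas6, which was far higher in libraries labelled knockout, the ligand gene Pdgfc, which separated LM9 replicate 1 from its group, and Met, whose window alone held a single NFI core site. The stretches lie upstream of the RefSeq start in GRCm38.p6 and are written 5′ to 3′ on the strand of the gene, with any NFI core site (TTGGC on either strand) in capitals. For Met only the bases outside the exons of the gene models used are shown.
Gas6, chr8:13494536-13494785, minus strand: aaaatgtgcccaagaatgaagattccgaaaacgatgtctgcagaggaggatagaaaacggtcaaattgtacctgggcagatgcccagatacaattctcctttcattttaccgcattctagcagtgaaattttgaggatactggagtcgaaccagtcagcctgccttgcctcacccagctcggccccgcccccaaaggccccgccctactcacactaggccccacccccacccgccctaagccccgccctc
Pdgfc, chr3:81036166-81036415, plus strand: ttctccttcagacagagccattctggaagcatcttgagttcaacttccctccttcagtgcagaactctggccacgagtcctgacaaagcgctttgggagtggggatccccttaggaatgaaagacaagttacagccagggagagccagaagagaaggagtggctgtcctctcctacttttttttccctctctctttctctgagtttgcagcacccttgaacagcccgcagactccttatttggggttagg
Met, chr6:17463707-17463799, plus strand: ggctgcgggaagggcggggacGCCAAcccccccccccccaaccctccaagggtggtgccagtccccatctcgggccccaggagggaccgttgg

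RefSeq windows of 300 bases, 250 before and 50 after a start, were matched for 6 members, with 2 starts for Pdgfa and 1 each for Pdgfra, Pdgfc, Met, Axl and Gas6. The palindromic NFI motif, in which TTGGC and GCCAA flank a gap of 5 bases, was found on either strand in 0 of these 7 windows and in 0.0365% of the 32851 windows of all genes. The core site TTGGC, which is contained in that motif, was found in 1 of the 7 windows, 229 bases before the start of Met, and in 46.7% of all windows. The AP-1 motif TGANTCA (7.81% of all windows) and the hypoxia response core ACGTG (19.6%) were likewise found in 1 window, that of Met. A match describes letters and not a site in use.

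The receptor Pdgfrb and the ligand Gas6 showed the largest rises among the 8 genes in libraries labelled knockout, from near-background levels, and Pdgfb showed the largest fall. Pdgfra rose modestly, Pdgfa, Met and Axl fell modestly, and Pdgfc fell in the LM1 comparison, with no call in LM9. With limma-voom and Benjamini-Hochberg adjustment over 18176 genes, 8 of 8 members passed an adjusted p of 0.05 in LM1 Nfib KO against LM1 (3 higher and 5 lower), where 81.2% of all genes did so (43.1% higher and 38.1% lower). In LM9 Nfib KO against LM9, 7 of 8 passed (3 higher and 4 lower), against 82.3% of all genes (44.3% higher and 38.0% lower). Without LM9 replicate 1 the counts were again 8 and 7 of 8, against 88.6% and 88.9% of genes. With a log2 fold change above 1 in either direction as well, 4 of 8 members were called in each line, against 55.0% of genes in LM1 and 57.5% in LM9. As most genes were called, these counts say little about the members, which are described by the sizes and directions of their changes.

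**Figure D1:**
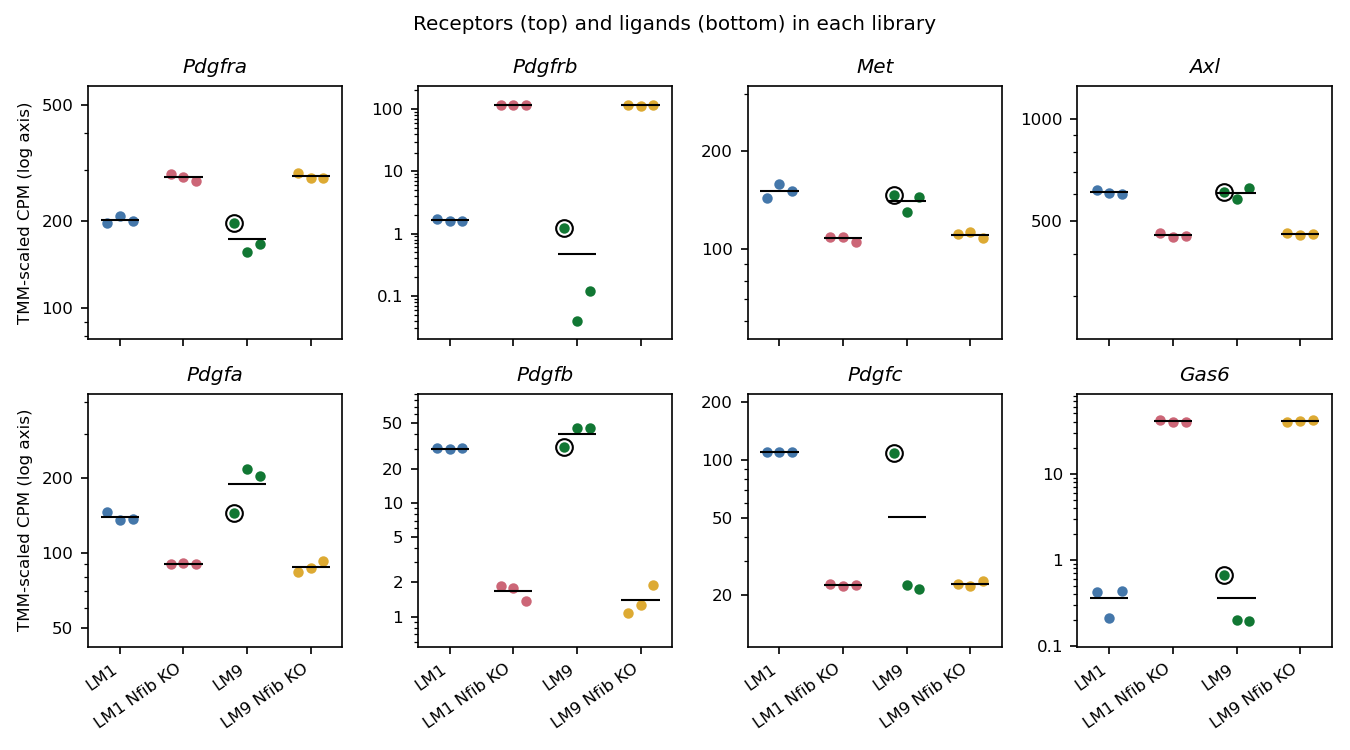
Each panel plots 1 gene, with TMM-scaled CPM on a log axis, 1 point per library and a horizontal line at the group mean, and a ring marks LM9 replicate 1. Pdgfrb and Gas6 lie more than an order of magnitude higher in both groups labelled knockout, and the ringed library lies beside LM1 for Pdgfc (109 against 110.2 to 111 CPM) and away from the other LM9 libraries (21.6 and 22.6).

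Pdgfrb, the receptor for PDGF-B and a defining gene of pericytes and fibroblasts, was almost silent in the parental lines. Its level was 1.74, 1.56 and 1.59 CPM in the 3 LM1 libraries and 116, 115 and 116 CPM in LM1 Nfib KO. It was 1.25, 0.0403 and 0.118 CPM in LM9 and 117, 109.9 and 116 CPM in LM9 Nfib KO. The groups labelled knockout did not overlap with their parental lines, and they overlapped with each other. The ratio of group means was 71.2-fold in LM1, with a log2 fold change of 6.14 ± 0.35 (SE, adjusted p = 1.55e-08). In LM9 the log2 fold change was 8.96 ± 0.60 (adjusted p = 6.33e-08), but the level in LM9 rested on replicate 1, which held 37 of the 41 Pdgfrb counts in that group. Without it the log2 fold change was 10.29 ± 0.47 (adjusted p = 9.94e-13), a value that depends on the offset added to counts of 1 and 3. The ratio of summed counts was then 1433, with a 95% counting interval of 559 to 5259. Intervals of this kind cover counting error only.

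Pdgfra encodes the alpha receptor, which marks mesenchymal progenitors and fibroblasts, and it was the main PDGF receptor transcript of the parental lines. It lay at 196, 208 and 199 CPM in LM1 and at 290.0, 283 and 273 CPM in LM1 Nfib KO (log2 fold change 0.49 ± 0.08, adjusted p = 8.88e-05). It lay at 196, 156 and 167 CPM in LM9 and at 291, 281 and 281 CPM in LM9 Nfib KO (log2 fold change 0.72 ± 0.08, adjusted p = 3.28e-06), or 0.82 ± 0.04 without LM9 replicate 1. In both lines all 3 libraries labelled knockout were above all 3 parental libraries. The antisense models Gm42802 and Gm42803 overlap 456 and 166 exon bases of Pdgfra and were not analysed here.

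When levels were divided by exon length so that both receptors could be compared, Pdgfrb made up 1.46% ± 0.12 (SD, n = 3) of summed PDGF receptor transcript in LM1 and 42.9% ± 0.77 in LM1 Nfib KO. The share was 0.442% ± 0.61 in LM9, namely 1.15% in replicate 1 and 0.0882% on average in the others, and 42.4% ± 0.65 in LM9 Nfib KO. The exon union of Pdgfra is 10024 bases and its longest transcript 6834, against 5478 and 5423 for Pdgfrb. By longest transcript the Pdgfrb shares would therefore be lower. Summed receptor transcript was 20.4 ± 0.61 CPM per kb in LM1 and 49.3 ± 0.82 in LM1 Nfib KO, and 17.4 ± 2.2 in LM9 (16.1 without replicate 1) and 49.2 ± 1.1 in LM9 Nfib KO. Most of this difference was Pdgfrb, which alone reached 21.2 CPM per kb in LM1 Nfib KO. In bulk RNA, fewer cells of a type and less RNA per cell cannot be told apart, so these shares do not say whether both receptors were present in the same cells.

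Pdgfb, which encodes the chain that binds both receptors, changed in the opposite direction to Pdgfrb. It lay at 30.1, 29.6 and 30.0 CPM in LM1 and at 1.86, 1.80 and 1.37 CPM in LM1 Nfib KO. It lay at 30.7, 45.6 and 45.0 CPM in LM9 and at 1.09, 1.26 and 1.90 CPM in LM9 Nfib KO. No library labelled knockout came near a parental one, and LM9 replicate 1 was the LM9 library closest to LM1. The group mean was 17.8-fold lower in LM1 Nfib KO than in LM1 (log2 fold change -4.15 ± 0.25, adjusted p = 2.44e-08) and 28.5-fold lower in LM9 Nfib KO than in LM9 (-4.83 ± 0.26, adjusted p = 9.55e-09). The ratio in LM9 was 32.0-fold without replicate 1 (log2 fold change -5.03 ± 0.15).

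Pdgfa, a ligand of the alpha receptor and per exon length the most abundant of the PDGF chains followed in all 4 groups, fell by less. It lay at 145, 135 and 136 CPM in LM1 and at 89.9, 91.2 and 90.0 CPM in LM1 Nfib KO, with a log2 fold change of -0.62 ± 0.12 (adjusted p = 0.000666). It lay at 144, 217 and 203 CPM in LM9 and at 83.9, 86.9 and 92.7 CPM in LM9 Nfib KO, with a log2 fold change of -1.08 ± 0.12 (adjusted p = 7.06e-06), or -1.25 ± 0.05 without LM9 replicate 1. The groups did not overlap in either line. An antisense transcript, 6330403L08Rik, shares 813 exon bases with Pdgfa and had 24 to 681 counts of its own, and since use of strand in counting was not stated, part of the Pdgfa signal is uncertain.

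Pdgfc, the chain that is activated by proteolysis, did not follow the labels in LM9. It lay at 111, 110.9 and 110.2 CPM in LM1 and at 23.0, 22.3 and 22.6 CPM in LM1 Nfib KO, 4.89-fold lower by group means (log2 fold change -2.29 ± 0.44, adjusted p = 0.000527). In LM9 it lay at 109 CPM in replicate 1 but at 22.6 and 21.6 CPM in replicates 2 and 3, and in LM9 Nfib KO at 22.7, 22.2 and 23.6 CPM. Replicates 2 and 3 of LM9 were thus at the level of both groups labelled knockout, whereas replicate 1 was at that of LM1. The LM9 comparison gave a log2 fold change of -0.75 ± 0.47 (adjusted p = 0.163, 95% interval -1.79 to 0.30) and without LM9 replicate 1 one of 0.05 ± 0.06 (adjusted p = 0.368, interval -0.06 to 0.17). Pdgfc in LM9 passed with edgeR (-1.16, adjusted p = 0.0455), with DESeq2 (-1.15, adjusted p = 0.0201) and without LM9 replicate 3 (-1.14, adjusted p = 0.0480). The SE in LM1 also shrank, from 0.44 to 0.04, when LM9 replicate 1 was left out of the shared estimate of the spread.

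Summed transcript of Pdgfa, Pdgfb and Pdgfc moved opposite to the receptors. It went from 73.4 ± 1.8 CPM per kb in LM1 to 33.8 ± 0.22 in LM1 Nfib KO. It went from 80.0 ± 5.0 in LM9 (82.5 without replicate 1) to 33.0 ± 1.6 in LM9 Nfib KO. In LM1 the sum was 60.6% Pdgfa, 9.79% Pdgfb and 29.6% Pdgfc, and in LM1 Nfib KO it was 85.7%, 1.19% and 13.2%. LM9 without replicate 1 differed from LM1 in its mix, with 81.5% Pdgfa, 13.2% Pdgfb and 5.25% Pdgfc. Replicate 1 of LM9 had 61.7%, 9.83% and 28.5%, close to LM1.

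**Figure D2:**
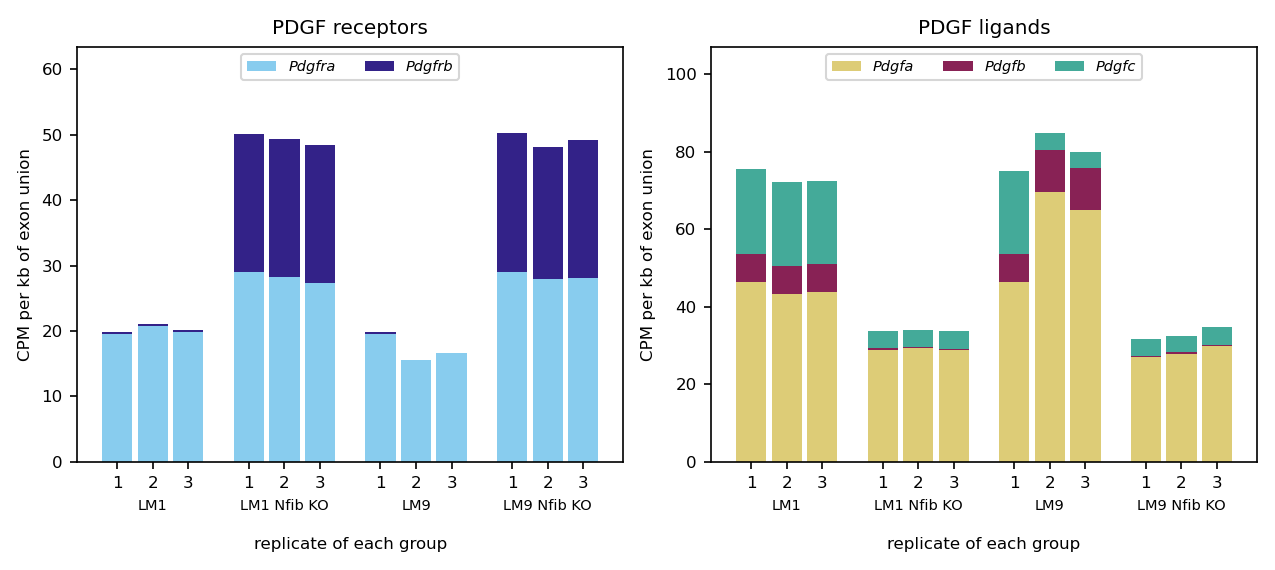
Stacked bars give the level of each PDGF receptor (left) and each PDGF ligand followed (right) in CPM per kb of exon union, 1 bar per library. Pdgfrb fills 41.7 to 43.8% of the receptor bars in libraries labelled knockout and at most 1.59% elsewhere, and Pdgfc is visibly smaller in LM9 replicates 2 and 3 than in LM9 replicate 1.

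Gas6, the secreted ligand of AXL, TYRO3 and MERTK, rose from a handful of counts. It lay at 0.425, 0.215 and 0.434 CPM in LM1 (12, 7 and 12 counts) and at 42.4, 40.2 and 39.8 CPM in LM1 Nfib KO. It lay at 0.675, 0.201 and 0.197 CPM in LM9 (20, 5 and 5 counts) and at 39.9, 41.1 and 42.5 CPM in LM9 Nfib KO. The 6 libraries labelled knockout lay within 39.8 to 42.5 CPM, far above every parental library. The ratio of means was 114-fold in LM1 (log2 fold change 6.85 ± 0.31, adjusted p = 2.48e-09) and 115-fold in LM9 (6.97 ± 0.33, adjusted p = 3.24e-09). Without LM9 replicate 1 the latter was 206.7-fold (counting interval 112 to 431).

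Axl, the receptor that Gas6 activates, was the most abundant member per exon length in all 4 groups and changed little. It lay at 619, 607 and 603 CPM in LM1 and at 460.1, 448 and 454 CPM in LM1 Nfib KO (log2 fold change -0.43 ± 0.05, adjusted p = 5.21e-06). It lay at 609, 581 and 628 CPM in LM9 and at 461, 456 and 457 CPM in LM9 Nfib KO (log2 fold change -0.40 ± 0.05, adjusted p = 8.22e-06) that was the same without LM9 replicate 1 (-0.40 ± 0.03). The groups did not overlap, although 79.4% of all genes in LM1 and 81.9% in LM9 had a larger absolute change.

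Met, the hepatocyte growth factor receptor, also fell by a small amount. It lay at 143, 159 and 151 CPM in LM1 and at 109, 109 and 105 CPM in LM1 Nfib KO (log2 fold change -0.49 ± 0.06, adjusted p = 1.74e-05). It lay at 147, 130.1 and 145 CPM in LM9 and at 111, 113 and 108 CPM in LM9 Nfib KO (log2 fold change -0.34 ± 0.06, adjusted p = 0.000306), or -0.31 ± 0.05 without LM9 replicate 1. The small falls of Axl and Met depended on the scaling: with library totals in place of TMM factors the log2 fold changes in LM9 were -0.05 for Axl (adjusted p = 0.432) and 0.01 for Met (adjusted p = 0.897), and the direction of Met flipped. In LM1 they were -0.20 for Axl (adjusted p = 0.00685) and -0.26 for Met (adjusted p = 0.0111). That scaling moved the all-gene median of the log2 fold change from 0.08 to 0.31 in LM1 and from 0.13 to 0.49 in LM9, so Axl and Met lay below the all-gene median under both.

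**Figure D3:**
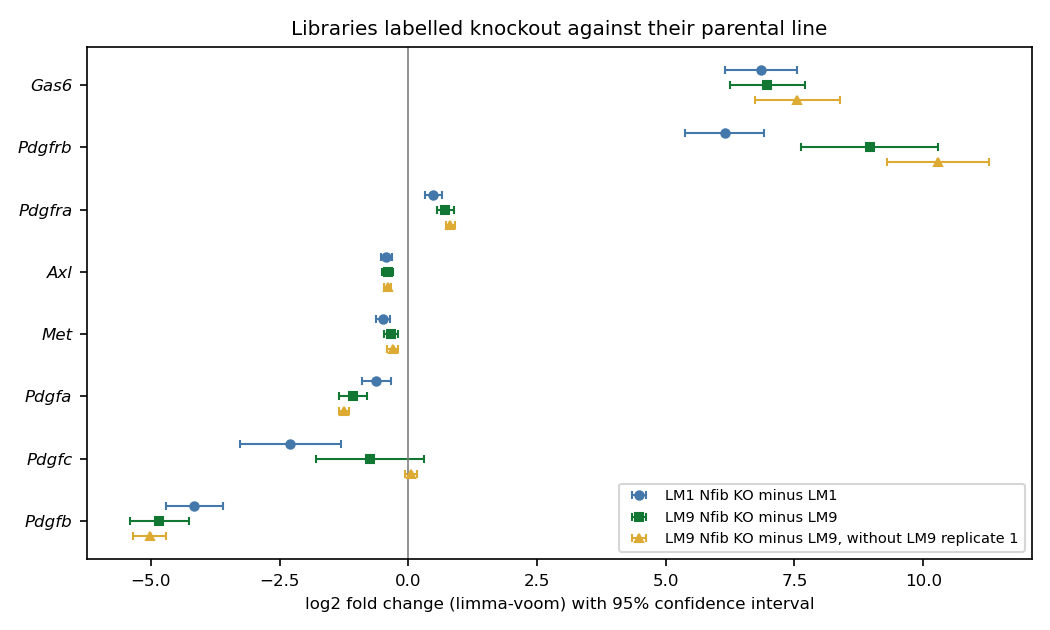
Points give the log2 fold change of each gene from limma-voom and bars its 95% confidence interval, for LM1, for LM9 and for LM9 without replicate 1. The intervals of Gas6, Pdgfrb and Pdgfra lie above 0 and those of Axl, Met, Pdgfa and Pdgfb below it in all 3 fits, whereas Pdgfc lies below 0 in LM1 and includes 0 in both LM9 fits.

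Per exon length, the order in LM1 was Axl (121 CPM per kb), Pdgfa (44.5), Pdgfc (21.8), Pdgfra (20.1), Met (19.7), Pdgfb (7.19), Pdgfrb (0.298) and Gas6 (0.140), and the ranges overlapped only between Pdgfra and Met. In LM1 Nfib KO the order was Axl (90.2), Pdgfa (29.0), Pdgfra (28.1), Pdgfrb (21.2), Gas6 (16.0), Met (14.0), Pdgfc (4.45) and Pdgfb (0.404), with overlap only between Pdgfa and Pdgfra. By exon union Pdgfrb and Gas6 therefore moved from the bottom of the list to above Met. For Met the exon union is 7679 bases and the longest transcript 6809, and for Gas6 both are 2548. The gap between Gas6 and Met and the overlaps between neighbours thus depend on the length used. LM9 Nfib KO had the same order apart from the overlapping pair Pdgfa and Pdgfra. In LM9 the ranges of Met, Pdgfra, Pdgfc and Pdgfb overlapped in turn, and those of Gas6 and Pdgfrb did as well, but these overlaps rested on replicate 1. In replicates 2 and 3 alone no ranges overlapped, and the order was Axl (120.1), Pdgfa (67.3), Met (17.9), Pdgfra (16.1), Pdgfb (10.9), Pdgfc (4.34), Gas6 (0.0782) and Pdgfrb (0.0145), with Pdgfc below Pdgfb.

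The 2 parental lines were then compared. With all libraries, 0 of 8 members passed in LM1 against LM9 (limma-voom), where 0.00550% of genes did. An unadjusted p under 0.05 was reached by 5 of 8 members and by 8661 of all 18176 genes. At the adjusted threshold edgeR likewise called 0, and DESeq2 called 3, against 33.9% of all genes. Without LM9 replicate 1, 6 of 8 passed, against 65.7% of all genes. In that fit LM1 was higher than LM9 in Pdgfrb (log2 difference 4.17 ± 0.48), Pdgfc (2.33 ± 0.05), Pdgfra (0.32 ± 0.04) and Met (0.14 ± 0.05), and lower in Pdgfb (-0.60 ± 0.06) and Pdgfa (-0.60 ± 0.05). Axl (0.01, interval -0.05 to 0.08) and Gas6 (0.69, interval -0.29 to 1.67) did not pass. With all 12 libraries kept, library totals in place of TMM factors called 4 members (28.8% of all genes), a filter at a mean of 5 CPM called 5 (39.4%) and sample quality weights called 6 (63.8%), so the calls between the lines depended on scaling, filter and method as well as on LM9 replicate 1. That library was 0.982 times the LM1 mean for Pdgfc and 1.04 times for Pdgfa, but, by depth-scaled counts, 0.767 times for Pdgfrb (counting interval 0.519 to 1.11) and 1.93 times for Gas6 (1.04 to 3.49). It lay inside the LM1 range for Pdgfa, Met and Axl, and by depth-scaled counts it was 0.973 times LM1 for Pdgfra and 1.03 times for Pdgfb.

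The difference between the knockout comparisons of the lines was tested as an interaction. With all libraries 0 of 8 members passed (limma-voom, and 0 by edgeR and DESeq2), where 0.00% of genes did (0.429% with DESeq2). By limma-voom 3 of 8 members and 4495 of all 18176 genes had an unadjusted p under 0.05. Without LM9 replicate 1, 6 of 8 passed, against 57.2% of genes, and sample quality weights with all libraries likewise called 6, against 58.1%. The difference, as the log2 fold change in LM1 minus that in LM9, was then -4.14 ± 0.48 for Pdgfrb and -0.33 ± 0.05 for Pdgfra, so both rose by less in LM1. It was -2.34 ± 0.07 for Pdgfc, which fell in LM1 and did not pass in LM9, and -0.18 ± 0.07 for Met. It was 0.88 ± 0.20 for Pdgfb and 0.64 ± 0.06 for Pdgfa, which both fell by less in LM1. These differences mirrored those between the parental lines, which enter both, and the groups labelled knockout lay at overlapping levels.

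Between LM1 Nfib KO and LM9 Nfib KO, 0 of 8 members passed (limma-voom, edgeR and DESeq2, with 0 at an unadjusted p under 0.05 in each), where 0.00% of genes did, and the ranges overlapped for all 8. Group means were 282 and 284 CPM for Pdgfra, 116 and 114 for Pdgfrb, 454 and 458 for Axl and 108 and 111 for Met. For the ligands they were 90.4 and 87.9 CPM for Pdgfa, 1.68 and 1.42 for Pdgfb, 22.6 and 22.8 for Pdgfc and 40.8 and 41.2 for Gas6.

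Of 75 genes listed as partners, adaptors and brakes of these receptors, 68 were analysed here. The others had no row in the counts used, among them Hgf, the gene of the MET ligand, Mst1r and Pdgfd. The same held for the cell type markers that were not analysed. In LM1 Nfib KO 24 rose, 33 fell and 11 did not pass, with a median log2 fold change of -0.28 against 0.08 over all genes. In LM9 Nfib KO 26 rose, 27 fell and 15 did not pass, with a median of 0.05 against 0.13. The medians were the same with the genes at 0 in all libraries of a group, 4 in LM1 and 1 in LM9, set to a bound of 3 counts per library. The balance of rises and falls depended on the scaling: with library totals 28 rose and 25 fell in LM1 Nfib KO, and 37 rose and 22 fell in LM9 Nfib KO. All genes shifted the same way with that scaling, to 48.0% higher and 32.9% lower in LM1 and 52.3% higher and 30.2% lower in LM9. Without LM9 replicate 1 the LM9 split was 35 and 27, against 47.7% and 41.2% of all genes. The share called was 57 of 68 in LM1 and 53 of 68 in LM9, near that of all genes (81.2% and 82.3%). The counts by list below stand beside 43.1% of all genes higher and 38.1% lower in LM1, and 44.3% and 38.0% in LM9, and with 6 to 24 genes a list they are descriptions only.

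Around the PDGF receptors, 4 of 8 partners rose and 3 fell in LM1 Nfib KO, and 4 rose and 2 fell in LM9 Nfib KO. Pdgfrl, a PDGF receptor-like gene without a kinase domain, fell from 344, 344 and 330.2 CPM in LM1 to 14.8, 14.2 and 14.8 CPM in LM1 Nfib KO (log2 fold change -4.54 ± 0.30, adjusted p = 5.13e-08). In LM9 it lay at 345 CPM in replicate 1 and at 147 and 147 in the others, and at 15.1, 15.2 and 14.5 CPM in LM9 Nfib KO (-3.71 ± 0.30, adjusted p = 2.98e-07). Nrp1, a co-receptor for several growth factors, rose from 8.85 ± 1.0 to 46.1 ± 1.5 CPM in LM1 and from 3.52 ± 4.8 to 46.0 ± 1.8 CPM in LM9, where replicate 1 held 9.04 CPM and the others averaged 0.753. Of the proteases that act on PDGF chains, Plau, the gene of urokinase, fell by 1.60 and by 1.53 on the log2 scale. Plat, the gene of tissue plasminogen activator that activates PDGF-C, changed by -0.28 in LM1 (adjusted p = 0.0215) and by 0.03 in LM9 (adjusted p = 0.761). With library totals in place of TMM factors the LM1 fall of Plat was smaller, from 139 to 144 CPM to 135 to 137 CPM. Furin did not pass in either line (-0.12 and 0.45, adjusted p = 0.582 and 0.0604). Pcsk6, a related convertase, had 0 counts in each LM1 library and 24 to 46 counts in LM1 Nfib KO. The 0 allows up to 3 counts, or 0.0876 to 0.103 CPM by library totals without TMM factors.

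Several partners of MET fell far. In LM1 Nfib KO 1 of 9 rose and 5 fell, against 43.1% and 38.1% of all genes, and in LM9 Nfib KO 2 rose and 6 fell, against 44.3% and 38.0%. St14 encodes matriptase, which activates the MET ligand, and lay at 51.4 to 56.6 CPM in LM1 and 0.0793 to 0.252 CPM in LM1 Nfib KO. Spint1, which encodes an inhibitor of the activating proteases, lay at 153 to 164 CPM and 0.183 to 0.503 CPM in those groups, and its relative Spint2 at 327 to 353 and 1.96 to 2.04. The log2 fold changes were -8.39 ± 0.56 (adjusted p = 6.44e-08), -8.77 ± 0.30 (2.50e-10) and -7.39 ± 0.26 (3.16e-10), and in LM9 they were -8.69, -9.04 and -8.09. Hpn, another activating protease, was scarce in LM1 (8 to 13 counts, adjusted p = 0.223) and fell in LM9 (-3.81 ± 1.1, adjusted p = 0.00723), where replicates 2 and 3 held 94 to 108 counts and replicate 1 held 10. Mst1, the ligand of the MET relative RON, did not pass in either line (0.96 and -0.50). Cd44, a hyaluronan receptor that can present the MET ligand, rose from 580 ± 29 to 1203 ± 34 CPM in LM1 and from 727 ± 138 to 1221 ± 22 CPM in LM9. St14, Spint1 and Spint2 thus had log2 fold changes of -7.39 or below in both lines, beside -0.49 and -0.34 for their receptor gene Met.

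Of the 6 TAM partners 3 rose and 2 fell in LM1 Nfib KO, and 2 rose and 2 fell in LM9 Nfib KO. Both TAM relatives of Axl rose. Tyro3 went from 12.6 ± 1.1 to 28.9 ± 1.7 CPM in LM1 (log2 fold change 1.20 ± 0.09, adjusted p = 1.36e-07) and from 10.5 ± 0.88 to 28.4 ± 1.1 CPM in LM9 (1.43 ± 0.09, adjusted p = 4.64e-08). Mertk lay at 2.38, 2.88 and 2.35 CPM in LM1 and at 8.63, 8.65 and 8.35 CPM in LM1 Nfib KO (1.75 ± 0.28, adjusted p = 0.000137). In LM9 it lay at 2.26, 0.524 and 0.472 CPM and in LM9 Nfib KO at 9.39, 8.10 and 7.10 CPM (3.22 ± 0.38, adjusted p = 1.00e-05). Axl still made up 93.2% ± 0.25 of summed TAM receptor transcript per exon length in LM1 Nfib KO, against 97.9% ± 0.17 in LM1. Pros1, the gene of protein S and the other TAM ligand, fell from 22.3 ± 1.0 to 13.6 ± 0.073 CPM in LM1 and from 19.4 ± 1.3 to 13.4 ± 0.89 CPM in LM9. With library totals in place of TMM factors the LM9 ranges of Pros1 overlapped. LM9 replicates 2 and 3 then lay at 15.40 and 15.37 CPM, and LM9 Nfib KO at 13.65, 15.45 and 15.19 CPM. Vkorc1, which recycles the vitamin K that GAS6 and protein S need, fell by 1.27 and by 1.63 on the log2 scale.

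**Figure D4:**
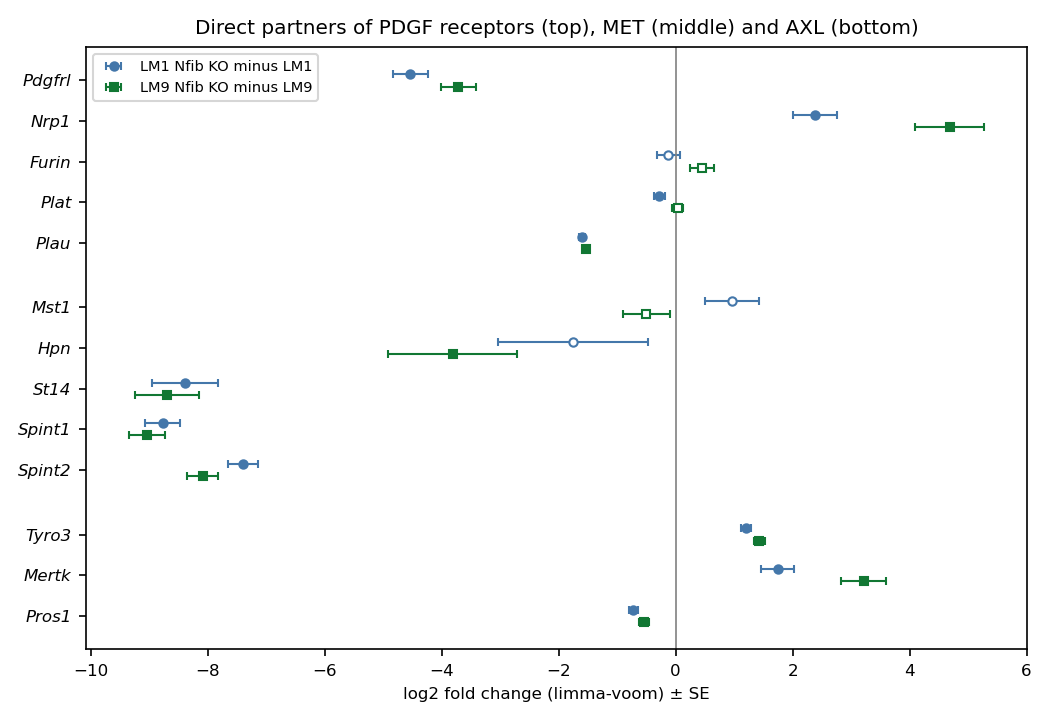
Points give the log2 fold change of direct partners from limma-voom with bars of 1 SE, for LM1 (circles) and LM9 (squares), and filled points passed an adjusted p of 0.05. St14, Spint1 and Spint2 lie between -9.04 and -7.39 in both lines, Mertk, Tyro3 and Nrp1 lie above 0, and Furin and Mst1 passed in neither line.

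Leaving out LM9 replicate 1 changed several of these partner results in LM9. The log2 fold change in LM9 was then -3.30 ± 0.05 for Pdgfrl, 5.99 ± 0.31 for Nrp1, -5.06 ± 0.32 for Hpn and 3.98 ± 0.33 for Mertk, with no change of direction. Furin (0.79 ± 0.05, adjusted p = 2.53e-10) and Plat (0.19 ± 0.04, adjusted p = 0.000109) rose in LM9 Nfib KO in that fit, where neither had passed with all libraries. In that fit 6 PDGF partners rose and 2 fell in LM9 Nfib KO, 2 MET partners rose and 6 fell, and 3 TAM partners rose and 2 fell. Of the lists given below, 6 other class III genes rose and 1 fell, 15 adaptors and relays rose and 7 fell, and 3 brakes rose and 9 fell. Of all genes 47.7% were higher and 41.2% lower in that fit.

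The remaining lists held fewer direct partners. Of 7 other class III receptors and their ligands, 5 rose and 2 fell in LM1 Nfib KO, and 5 rose and 1 fell in LM9 Nfib KO. Csf1r, the receptor of colony-stimulating factor, had 0 counts in each LM1 library and 446 to 514 in LM1 Nfib KO, and Flt3l, the ligand of FLT3, fell by 1.23 on the log2 scale. Of 24 adaptors and relays, 9 rose and 12 fell in LM1 Nfib KO and 10 rose and 7 fell in LM9 Nfib KO, with Pik3r3, a regulatory subunit of PI3K, rising by 1.65 and 2.56 and the adaptor Nck2 changing by -2.08 and -1.85. Of 14 brakes, 2 rose and 9 fell in LM1 Nfib KO and 3 rose and 9 fell in LM9 Nfib KO, where 38.1% and 38.0% of all genes fell. Among these, Socs1, a cytokine-signalling inhibitor, rose by 2.68 and 1.75, and Cblc, a ubiquitin ligase of receptor kinases, lay at 352 to 391 counts in LM1 and 0 to 3 in LM1 Nfib KO.

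Markers of other cell types moved with Pdgfrb and Gas6, but not as whole lists. Summed fibroblast markers, 6 of 8 analysed, lay at 281 to 308 CPM in LM1, 17.0 to 288 in LM9 and 904 to 1014 in the groups labelled knockout. Higher in both groups labelled knockout were the collagen genes Col1a1 (6.10 ± 0.18 CPM in LM1 and 958 ± 22 in LM1 Nfib KO), Col3a1 (0.219 and 20.4 CPM on average) and Col1a2 (0 counts and 25 to 35), and Lum (0 to 1 counts and 8 to 17). Dcn and Postn, which encode matrix proteins, were lower in LM1 Nfib KO, at 11.5 ± 0.54 against 90.7 ± 4.6 CPM and 1.86 ± 0.11 against 193 ± 12 CPM. In LM9 the levels of Postn were 197 CPM in replicate 1 and 0.282 and 0.157 in replicates 2 and 3, with 1.63 to 2.39 in LM9 Nfib KO, so the direction for Postn turned without replicate 1.

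Summed pericyte and smooth muscle markers, 3 of 7 analysed, lay at 32.9 to 33.6 CPM in LM1, 23.5 to 33.7 in LM9 and 1.66 to 2.27 in the groups labelled knockout, and this difference was that of Mcam (31.1 to 31.8 CPM in LM1 and 0.183 to 0.238 in LM1 Nfib KO). The ranges of Des (1.37 to 1.74 and 1.18 to 1.80 CPM) and Rgs5 (0.276 to 0.603 and 0.277 to 0.317 CPM) overlapped between those groups. In LM9 Nfib KO Des lay at 1.24 to 1.32 CPM, above LM9 replicates 2 and 3 (0.363 and 0.551) and below replicate 1 (1.52). Endothelial markers, 4 of 6 analysed, summed to 0.573 to 2.64 CPM in the parental lines and to 369 to 377 in the groups labelled knockout. There 3 of the 4 were higher, namely Kdr, the VEGF receptor (282 ± 2.2 CPM in LM1 Nfib KO, with 0 to 2 counts in the parental libraries), Cdh5, the endothelial cadherin (67.8 to 74.6 CPM, with 0 to 1 counts in the parental libraries), and Vwf, von Willebrand factor (17.3 to 18.8 CPM against 0.371 to 1.496). Pecam1 lay at 0.243 to 0.555 CPM in the groups labelled knockout and at 0.169 to 1.33 in the parental lines.

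Basal markers, 3 of 6 analysed, went in different directions. Trp63, a regulator of basal cells, lay at 15.8 to 19.0 CPM in LM1 and 0.238 to 0.392 in LM1 Nfib KO, and in LM9 at 17.9 in replicate 1 but 0.0403 and 0.276 in the others, beside 0.156 to 0.337 in LM9 Nfib KO. The basal keratins were higher in the groups labelled knockout, Krt14 at 6.16 to 6.90 CPM and Krt17 at 11 to 20 counts, against at most 8 and 3 counts in a parental library. Of 7 leukocyte markers 2 were analysed, and Cd68 lay at 450.2 to 554 CPM in the parental lines and 95.7 to 104 in the groups labelled knockout, whereas Csf1r lay at 0 to 1 counts and at 446 to 514. The part of other cell types in the changes of the 8 genes was not tested.

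The genes most alike to each member were those with the smallest root mean square difference between centred log2 CPM profiles over the 12 libraries, among 10280 genes of at least 10 CPM. For Axl they were Tnpo2 (0.029) and Limk2 (0.034), for Pdgfra Cask (0.036) and Ankle2 (0.039), for Met Tox4 (0.040) and Gmcl1 (0.044) and for Pdgfa Atxn2l (0.044) and Ppp2r2d (0.050). For Pdgfc they were Cand2 (0.098) and Zc3h12a (0.10), and for Pdgfb H2-Q7 (0.19) and Rras (0.19), where H2-Q7 belongs to a family of near-identical genes and its count is uncertain. The members with the largest rises had the poorest matches, with Cybrd1 (0.26) and Fam189b (0.34) for Gas6 and Jrk (0.52) and Zdhhc14 (0.54) for Pdgfrb.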

How the data were processed

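RNA from 12 tumoursphere samples was sequenced as stranded, single-end libraries. The authors aligned reads with STAR to mm10 and counted, with qCount of QuasR, reads whose 5′ ends fell in a gene's merged exons. Versions and the annotation release are not given in the sources used here. The deposited values were raw counts per gene, 1 table per library, and in every one of the 18278 genes at least 3 libraries reached 8 counts. Of these, 18268 identifiers were named with GENCODE M21.

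Counts were filtered with filterByExpr of edgeR 4.0.16 (18176 genes kept), scaled by TMM and fitted with limma-voom 3.58.1 in R 4.3.3, with 1 mean per group and all 12 libraries, after a check on simulated data. That check changed 200 genes by a log2 fold change of 1 at a dispersion of 0.01. It recovered 189 to 193 of them with the right sign, beside 9 to 15 false calls. Far more genes changed in the real data, so the check does not cover the scaling there. Adjusted p-values are two-sided and Benjamini-Hochberg corrected over all tested genes, and 0.05 was the threshold. CPM used TMM-scaled totals, and levels per length used GENCODE M21 exon unions. Sample groups came from sample titles. Members, lists and the rule for named genes (all members, direct partners, and per list the largest rise and fall shared by both lines) were chosen with earlier results of these data known. Promoter windows came from RefSeq (GRCm38.p6). Alternatives were edgeR, DESeq2 1.42.0, other scalings and filters, a replicate block, sample weights and leaving out each library. Counts of 29249075 to 37162594 per library set the precision, and coordinates are 1-based.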

Additional observations from a re-analysis of the deposited data

How the results depend on the processing

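With an absolute log2 fold change above 1 required as well, 4 members were called in LM1 Nfib KO against LM1 and 4 in LM9 Nfib KO against LM9. In every other setting run, both comparisons stayed within 1.5 times their main counts of 8 and 7, and the counts of pathway genes did too, although library totals gave 3 members higher and 2 lower in LM9 in place of 3 and 4. In LM1 against LM9, 0 members were called with all libraries, but DESeq2 called 3 (33.9% of all genes), library totals 4 (28.8%), a mean of at least 5 CPM 5 (39.4%) and sample quality weights 6 (63.8%), and leaving out 1 library gave 0 to 6, the highest without LM9 replicate 1 (65.7%). For the difference between lines, sample quality weights called 6 (58.1% of all genes) and leaving out 1 library gave 0 to 6, again the highest without LM9 replicate 1 (57.2%). Why the settings differ was not tested.

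Direction changed in 6 results. In LM1 against LM9, Axl was -0.0174 with DESeq2, -0.0169 with median-ratio factors, -0.00157 with a mean of at least 5 CPM and -0.000733 with quality weights, and leaving out 1 library gave -0.0204 to 0.0347. Its difference between lines was 0.00708 with DESeq2 and 0.00649 with median-ratio factors, with -0.0476 to 0.00775 on leaving out 1 library. Gas6 in LM1 against LM9 was -0.0809 with edgeR and -0.122 with DESeq2, with -0.183 to 0.687 on leaving out 1 library. Its difference between lines was 0.0688 with edgeR and 0.112 with DESeq2, with -0.698 to 0.171 on leaving out 1 library. None of these values passed the threshold. Met in LM9 was 0.0119 with library totals, and Pdgfc in LM9 was 0.0239 with quality weights and -1.14 to 0.0531 on leaving out 1 library, the latter without LM9 replicate 1. All are log2 values.

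Same-numbered replicates did not deviate together (r from -0.09 to 0.04), so the numbers do not pair samples. With the replicate block 8 and 7 members were called in the knockout comparisons of LM1 and LM9, beside 14599 and 14839 of all 18176 genes. Of 68 pathway genes 56 and 52 were called there. In LM1 against LM9 and between the groups labelled knockout, 0 members and 0 genes were called. For the difference between lines it was again 0 members and 0 genes. Low counts limit the folds of Pdgfrb and Gas6 in the parental lines, and with 3 libraries a group that may be technical, the p-values do not extend to other clones or lines.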
